A study of Mus musculus with 2 samples.

Results

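Nerve, ganglion and Schwann cell genes were followed in the RNA of the newborn mouse bladder. The 36 genes were taken by name from known roles in neurons and their glia, with earlier results of these data known. They make up 36 of the 43346 mouse genes in the files. They fall into 8 roles: regulators of neuron identity, axon and cytoskeleton proteins, synaptic vesicle proteins, noradrenergic enzymes and transporters, cholinergic genes, neuropeptides, Schwann cell and glial genes, and adhesion molecules. Total RNA was sequenced from 1 whole bladder of each of 2 pups at an age of 0 day, both of strain B6NCrl and born to 1 pregnant female. Neither pup was treated, so the samples form 1 group with 1 library per pup, called pup 2 and pup 1 as in the labels. The pup 2 library held 32564563 expected counts, which are reads assigned to genes by an estimator, and the pup 1 library held 43653931. Levels are in TPM, the share of all transcripts in a library, a unit corrected for gene length. With 1 library per animal and no contrast, no test across animals was possible and no p-value is given. Intervals are 95% counting intervals, exact Poisson for a level and exact binomial (Clopper-Pearson) for a ratio, and cover counting error only.

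The bladder is innervated by parasympathetic, sympathetic and sensory axons, which control its smooth muscle and report its filling. The cell bodies of these neurons lie mainly in the pelvic ganglia close to the bladder neck and in the dorsal root ganglia, so the bladder wall holds mostly axons and the Schwann cells that wrap them. Messenger RNA is concentrated in cell bodies, while Schwann cells keep theirs in the tissue. In a whole organ, fewer cells of a type and less RNA per cell cannot be told apart.

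Of the 36 genes, 34 had more than 3 counts in both pups, against 42.2% of all mouse genes and 70.8% of protein-coding genes, to which all 36 belong. A level of 1 TPM or more in both pups was reached by 19 of 36, against 31.9% of all mouse genes and 58.5% of protein-coding genes, so nerve genes were found at this level about as commonly as protein-coding genes in general. Only 5 stood at 10 TPM or more in both pups, 14 lay between 1 and 10 TPM, and 10 were below 0.5 TPM in both. The summed level was 549.7 TPM in pup 2 and 687 TPM in pup 1. Pmp22 and Uchl1 alone held 76.4% of that sum in pup 2 and 80.4% in pup 1. Without them the other 34 genes summed to 129.8 TPM in pup 2 and 134.7 TPM in pup 1. Over all 36 the median of the mean level was 1.21 TPM. The files also hold a posterior mean of each level, which averages over the ways shared reads can be assigned. For 7 of the 34 detected genes, Tac1, Th, Dbh, Egr2, Gfap, Syp and Syt1, it was more than 1.5 times the deposited TPM. Their levels thus depended on the estimate, and both are given below. The posterior SD of the count was 0 in both pups for each of these genes except Syp. Apart from Syp their counts were thus firm, and why the levels differ was not tested.

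**Figure D1:**
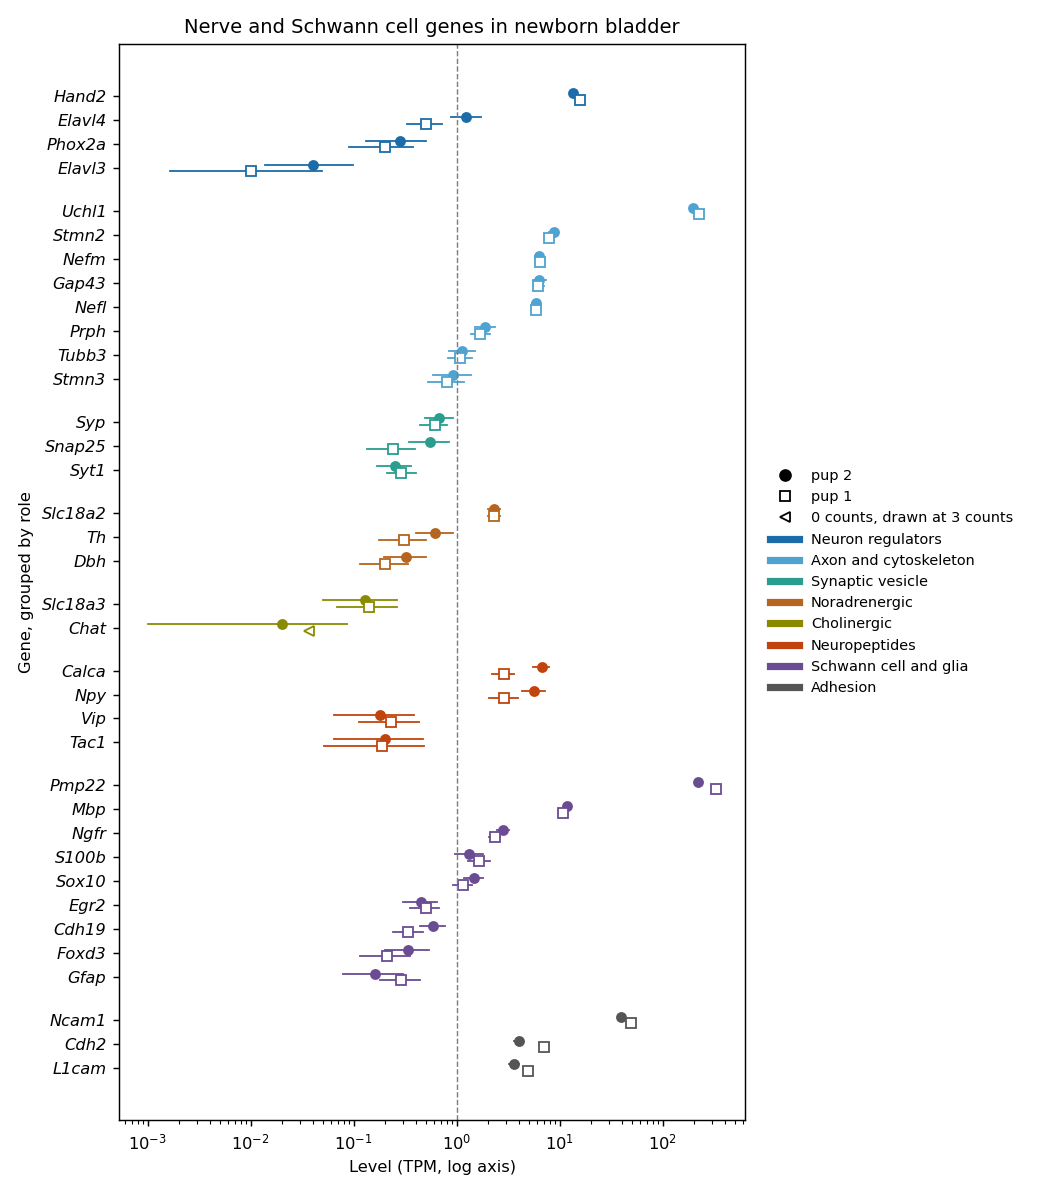
Level in TPM (log axis) of each of the 36 genes, grouped by role, with a filled circle for pup 2, an open square for pup 1 and bars for the exact 95% Poisson interval of each library. Pmp22 and Uchl1 stand between 197.8 and 327 TPM, most axon genes between 1 and 10 TPM, and the synaptic and cholinergic genes below 1 TPM by the deposited TPM; the dashed line marks 1 TPM.

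Placed in order of mean level, the genes formed 35 neighbouring pairs. In 20 of these the values of the 2 pups overlapped, so the order inside them is not resolved, and in 15 they did not. The upper part of the order was resolved from Uchl1 down to Nefm: Uchl1, Ncam1, Hand2, Mbp, Stmn2 and Nefm followed each other with no overlap between neighbours. Pmp22 and Uchl1, at the top, overlapped with each other. Between Egr2, at a mean of 0.475 TPM, and Tac1, at 0.195 TPM, every neighbouring pair overlapped.

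Axon and cytoskeleton genes were all detected, with 7 of 8 at 1 TPM or more in both pups. Uchl1, a ubiquitin hydrolase that is abundant in neurons and also known from other cell types, had 197.8 TPM in pup 2 and 225 TPM in pup 1. Stmn2, a tubulin-binding protein of growing axons, had 8.72 TPM in pup 2 and 7.88 TPM in pup 1. Gap43, a protein of growth cones that is also found in immature Schwann cells, had 6.36 TPM in pup 2 and 6.22 TPM in pup 1. These axon growth genes were therefore close to equal in the littermates and far below Uchl1.

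The neurofilament subunits followed at similar levels. Nefm, the medium neurofilament, had 6.23 TPM in pup 2 and 6.44 TPM in pup 1. Nefl, the light neurofilament, had 5.91 TPM in pup 2 and 5.88 TPM in pup 1. Nefl lies inside the span of Nefm on the opposite strand, and the strand setting of the counting is not given, so reads of the pair could not be checked for strand. Prph, the intermediate filament peripherin of peripheral neurons, had 1.89 TPM in pup 2 and 1.70 TPM in pup 1. Tubb3, the neuronal beta tubulin, had 1.13 TPM in pup 2 and 1.08 TPM in pup 1, on 48 and 57 counts. Stmn3, a relative of Stmn2, was the lowest of the role at 0.93 TPM in pup 2 and 0.81 TPM in pup 1.

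Most of the Uchl1 signal was assigned to a transcript annotated without a coding sequence. Uchl1-202, annotated as a retained intron form of 979 nt, held 71.3% of the gene's TPM in pup 2 and 70.9% in pup 1. Uchl1-201, which encodes the protein in 223 codons, held 26.2% in pup 2 and 26.8% in pup 1. The pair share 928 nt of exon, while 52 nt are particular to Uchl1-202 and 249 nt to Uchl1-201. The posterior SD of Uchl1-202 was 79.6 on 2969 counts in pup 2 and 87.0 on 4201 counts in pup 1. Prph-201, the leading form of peripherin, held 89.3% in pup 2 and 82.6% in pup 1, with the remainder on Prph-202, which differs by the inclusion of 106 nt. The posterior SD, 8.64 counts in pup 2 and 10.2 in pup 1, was of the size of the counts of Prph-202, 8.56 in pup 2 and 15.7 in pup 1.

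Regulators of neuron identity were uneven. Hand2, a basic helix-loop-helix factor needed for noradrenergic differentiation and also active in limb, heart and smooth muscle mesenchyme, had 13.49 TPM in pup 2 and 15.79 TPM in pup 1. Hand2os1, a long noncoding RNA whose gene overlaps Hand2 on the opposite strand, had 31.96 TPM in pup 2 and 28.6 TPM in pup 1. Elavl4, an RNA-binding protein of neurons, had 1.24 TPM in pup 2 and 0.50 TPM in pup 1, on 38 and 28 counts. Phox2a, a homeodomain factor of autonomic neurons, had 0.28 TPM in pup 2 and 0.20 TPM in pup 1, on 10 and 9 counts. Elavl3, a close relative of Elavl4, had 5 counts in pup 2 and 2 in pup 1 and was 1 of the 2 genes not detected in both. The regulators with the tightest link to autonomic neurons were thus near the limit of detection, whereas Hand2 was well above it.

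Synaptic vesicle genes were all detected, and all were below 1 TPM by the deposited TPM. Syp, the vesicle protein synaptophysin, had 0.68 TPM in pup 2 and 0.61 TPM in pup 1, but 1.32 TPM in pup 2 and 1.06 TPM in pup 1 by the posterior mean. Snap25, a membrane fusion protein of nerve endings, had 0.55 TPM in pup 2 and 0.24 TPM in pup 1, on 22 and 15 counts. Syt1, the calcium sensor of vesicle release, had 0.25 TPM in pup 2 and 0.29 TPM in pup 1, and 0.44 TPM in pup 2 and 0.47 TPM in pup 1 by the posterior mean. The side of 1 TPM on which Syp lay thus depended on the estimate.

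Among the member transmitter genes, each noradrenergic gene stood above each cholinergic gene in both pups by the deposited TPM. The intervals of Dbh and the cholinergic gene Slc18a3 overlapped in both pups, so the order of this pair is not resolved. In pup 2 they were 0.19 to 0.51 TPM for Dbh and 0.05 to 0.26 TPM for Slc18a3. In pup 1 the interval of Th also overlapped with that of Slc18a3. Slc18a2, the vesicular monoamine transporter, had 2.30 TPM in pup 2 and 2.31 TPM in pup 1. Th, the rate-limiting enzyme of catecholamine synthesis, had 0.62 TPM in pup 2 and 0.31 TPM in pup 1, on 25 and 16 counts, and by the posterior mean 1.06 TPM in pup 2 and 0.60 TPM in pup 1. Dbh, which converts dopamine to noradrenaline, had 0.32 TPM in pup 2 and 0.20 TPM in pup 1, on 19 and 15 counts, and by the posterior mean 0.72 TPM in pup 2 and 0.52 TPM in pup 1. Slc18a2 stood above both enzymes in each pup by either estimate; it is also known from mast cells and platelets, and its source was not tested. The summed level of the noradrenergic role was 3.24 TPM in pup 2 and 2.82 TPM in pup 1, most of it from Slc18a2. Transporters outside the members did not follow this order. Slc6a2, the noradrenaline transporter, had 3 counts in pup 2 and 4 in pup 1 and was not detected in both. Slc5a7, the choline transporter, had 8 and 5 counts and was detected.

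The cholinergic genes were at the detection limit. Slc18a3, the vesicular acetylcholine transporter, had 7 counts in pup 2 and 10 in pup 1, which is 0.13 TPM and 0.14 TPM. Chat, which makes acetylcholine, had 1 count in pup 2 and 0 in pup 1, within the 3 counts that a count of 0 allows. Slc18a3 lies inside the span of Chat on the same strand. Parasympathetic neurons of the pelvic ganglia are cholinergic, and these marker genes gave no more than these few counts at this depth.

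The neuropeptide genes divided into a pair above 1 TPM and a pair near the limit. Calca encodes both calcitonin and CGRP, the vasodilator peptide of sensory axons, through alternative last exons; it had 6.67 TPM in pup 2 and 2.86 TPM in pup 1. Npy, a peptide of sympathetic axons that is also made by other cells, had 5.64 TPM in pup 2 and 2.86 TPM in pup 1. Both genes were higher in pup 2, where their counts were 126 and 63, against 67 and 40 in pup 1. Vip, a relaxant peptide of parasympathetic axons, had 0.18 TPM in pup 2 and 0.23 TPM in pup 1. Tac1, the precursor of substance P, had 0.20 TPM in pup 2 and 0.19 TPM in pup 1, and by the posterior mean 0.52 TPM in pup 2 and 0.41 TPM in pup 1. Vip and Tac1 rested on 4 to 10 counts per library.

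The reads of Calca were assigned mainly to the calcitonin-type transcript. Calca-202, with 4 exons and the calcitonin-type last exon, held 84.9% of the gene's TPM in pup 2 and 89.9% in pup 1. Calca-201, with 5 exons and the CGRP-type end, held 15.1% in pup 2 and 10.1% in pup 1. In counts, Calca-202 had 104.5 in pup 2 and 59.3 in pup 1, and Calca-201 had 21.5 in pup 2 and 7.73 in pup 1. The pair share 337 nt while 493 nt are particular to Calca-202 and 657 nt to Calca-201, and the posterior SD of the counts was 2.95 in pup 2 and 1.56 in pup 1. In neurons the CGRP-type form is known as the main product of the gene, and in thyroid C cells the calcitonin-type form. The higher share therefore belonged to the form not typical of neurons, in both pups.

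Schwann cell and glial genes were all detected, 5 of 9 at 1 TPM or more in both pups. Pmp22, a compact myelin protein of peripheral nerve that is also made by fibroblasts and epithelia, was the highest of the 36 genes, at 222 TPM in pup 2 and 327 TPM in pup 1. Mbp, the myelin basic protein gene, had 11.81 TPM in pup 2 and 10.82 TPM in pup 1. Ngfr, the low-affinity neurotrophin receptor of immature Schwann cells and many mesenchymal cells, had 2.80 TPM in pup 2 and 2.33 TPM in pup 1. Sox10, a transcription factor needed by Schwann cells and largely restricted to neural crest derivatives, had 1.46 TPM in pup 2 and 1.15 TPM in pup 1. S100b, a calcium-binding protein of glia, had 1.33 TPM in pup 2 and 1.66 TPM in pup 1. Sox10 was thus more than 100-fold below Pmp22 in each pup.

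The remaining glial genes were below 1 TPM in both pups by the deposited TPM. Egr2, the transcription factor that drives myelination, had 0.45 TPM in pup 2 and 0.50 TPM in pup 1, and by the posterior mean 1.01 TPM in pup 2 and 0.96 TPM in pup 1. Cdh19, a cadherin of Schwann cell precursors, had 0.59 TPM in pup 2 and 0.34 TPM in pup 1, on 54 and 39 counts. Foxd3, a neural crest factor, had 18 counts in pup 2 and 14 in pup 1. Gfap, an intermediate filament of astrocytes and non-myelinating Schwann cells, had 10 counts in pup 2 and 22 in pup 1; its level was 0.16 TPM and 0.29 TPM, and by the posterior mean 0.35 TPM and 0.47 TPM.

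The transcripts of Pmp22 separated by start site. The gene, at chr11:63128982-63159547 on the plus strand of mm10, has an upstream start that is best known from myelinating Schwann cells and a downstream start, 2530 nt further along, that is used in many tissues. Both leading transcripts encode the same 160 codons. Pmp22-204, from the upstream start, held 15.7% of the gene's TPM in pup 2 and 17.8% in pup 1, which is 34.9 TPM and 58.3 TPM. Pmp22-201, from the downstream start, held 82.8% in pup 2 and 79.7% in pup 1. The downstream form led in both libraries, and the upstream form alone still exceeded every member below Uchl1 and Ncam1 in pup 2 and every member below Uchl1 in pup 1. The windows around both starts are shown because they differ in base composition: 250 bases before and 50 after each RefSeq start on GRCm38.p6, 5′ to 3′, plus strand, with CG dinucleotides in capitals. The upstream window is chr11:63128732-63129031 and has 3 CG dinucleotides. The downstream window is chr11:63131207-63131506, has 18, and belongs to a RefSeq start 55 nt before that of Pmp22-201.
Pmp22 upstream start: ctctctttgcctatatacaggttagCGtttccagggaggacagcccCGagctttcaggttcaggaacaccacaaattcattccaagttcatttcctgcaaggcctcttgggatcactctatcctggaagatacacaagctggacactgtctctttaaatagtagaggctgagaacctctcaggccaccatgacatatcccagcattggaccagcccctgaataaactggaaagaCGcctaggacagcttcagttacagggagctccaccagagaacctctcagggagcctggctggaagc
Pmp22 downstream start: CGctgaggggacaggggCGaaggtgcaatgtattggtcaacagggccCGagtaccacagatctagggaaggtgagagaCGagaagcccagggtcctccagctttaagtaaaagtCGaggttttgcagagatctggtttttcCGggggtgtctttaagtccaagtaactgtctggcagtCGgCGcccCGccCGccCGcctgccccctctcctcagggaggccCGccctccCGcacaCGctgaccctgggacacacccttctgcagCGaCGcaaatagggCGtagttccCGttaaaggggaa

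Mbp also has a pair of start regions. The upstream starts give the golli transcripts, which are expressed in neurons, glia and immune cells, and the downstream starts give the classic myelin proteins. Transcripts from the upstream starts held 77.3% of the gene's TPM in pup 2 and 86.4% in pup 1, or 9.14 TPM and 9.35 TPM. Transcripts from the downstream starts held 22.7% in pup 2 and 13.6% in pup 1, or 2.68 TPM and 1.47 TPM, on 121 and 82.8 counts. By posterior means the downstream share was 27.2% in pup 2 and 18.1% in pup 1, so the classic myelin form of Mbp was the smaller part in both pups by either estimate. The downstream transcripts overlap heavily, and the posterior SD of single ones reached 18.0 counts in pup 2 and 12.7 in pup 1. The leading single transcript was Mbp-205, an upstream form, with 57.5% in pup 2 and 64.0% in pup 1.

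**Figure D2:**
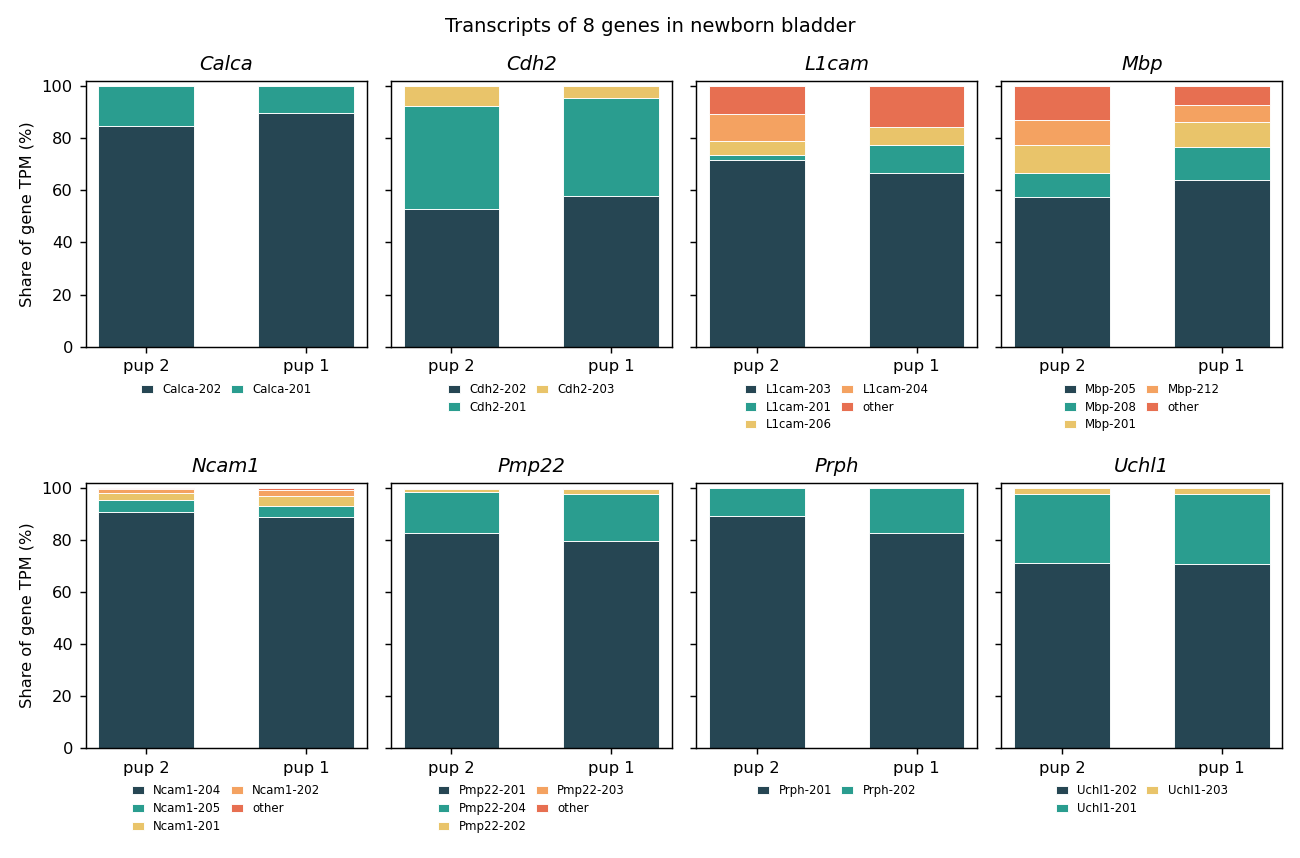
Share of each gene's TPM by transcript (percent, stacked) for the 8 genes averaging 50 or more counts and with a leading transcript under 90% in at least 1 pup, with pup 2 left of pup 1. The leading transcript, in the darkest colour, was the same in both pups for all 8 genes; Calca-202 and Pmp22-201 held about 80% to 90% of their genes.

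Adhesion molecules were all at 1 TPM or more. Ncam1, the neural cell adhesion molecule, also made by muscle and mesenchyme, had 39.5 TPM in pup 2 and 48.8 TPM in pup 1. Cdh2, N-cadherin, had 3.98 TPM in pup 2 and 6.97 TPM in pup 1. L1cam, an adhesion molecule of growing axons that epithelia also make, had 3.62 TPM in pup 2 and 4.92 TPM in pup 1. Each of the 3 was lower in pup 2.

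Their transcripts gave further detail. Ncam1-204, of 848 codons, held 90.8% of Ncam1 TPM in pup 2 and 88.7% in pup 1. Ncam1-205, the longest form at 6564 nt, came next with 4.56% in pup 2 and 4.42% in pup 1. Ncam1-201, the lipid-anchored form of 725 codons, held 2.71% in pup 2 and 3.91% in pup 1. L1cam-203, which carries a 15-nt exon but no 12-nt exon, held 71.6% in pup 2 and 66.5% in pup 1, and 50.7% and 51.5% by posterior means. L1cam-202, which carries both small exons as the neuronal form of the gene does, was assigned 0 counts in both pups, with a posterior SD of 7.16 counts in pup 2 and 8.79 in pup 1. It shares 4949 nt with L1cam-203, so these data do not resolve whether it was absent. L1cam-201, with neither small exon, held 1.92% in pup 2 and 10.9% in pup 1, on 6.68 ± 6.98 counts in pup 2 and 64.6 ± 16.5 in pup 1 (posterior SD). Cdh2-202 held 53.0% in pup 2 and 57.8% in pup 1, with most of the rest on Cdh2-201. For all 19 genes averaging 50 or more counts, the leading transcript was the same in both pups, and in the other 11 it held 90% or more.

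Further genes of these cells were described from lists chosen by role, with earlier results of these data known. Of 21 other autonomic neuron genes, 15 were detected and 7 reached 1 TPM in both pups. The highest were Gata3, with 53.3 TPM in pup 2 and 58.4 TPM in pup 1, Gata2, with 29.0 TPM and 31.3 TPM, and Penk, an opioid peptide precursor, with 25.5 TPM and 20.8 TPM. Gata3 and Gata2 are transcription factors of sympathetic neurons that urothelium and other tissues also use. Of the acetylcholine receptor subunits in the list, Chrna3 had 4 counts in pup 2 and 2 in pup 1. Chrnb4 had 0 in pup 2 and 3 in pup 1. Chrnb2 had 17 counts in pup 2 and 15 in pup 1, or 0.13 TPM and 0.09 TPM. Neither Chrna3 nor Chrnb4 thus met the detection rule, and Chrnb2 met it at well below 1 TPM. The other genes of the list at 1 TPM or more were Ddc, Isl1, Cartpt and Gfra2. Ddc had 8.27 TPM in pup 2 and 6.45 TPM in pup 1, and Gfra2, the lowest, had 2.00 TPM and 1.95 TPM. The cell source of the genes in this list was not tested.

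Of 28 other neuronal genes, all 28 were detected and 11 reached 1 TPM in both pups, or 14 by the posterior mean. Vamp2, a vesicle fusion protein of many cells, had 42.2 TPM in pup 2 and 48.6 TPM in pup 1. Rbfox3, the gene of the neuronal nuclear marker NeuN, had 41.7 TPM in pup 2 and 39.0 TPM in pup 1. Map1b, a microtubule protein of growing axons, had 24.4 TPM in pup 2 and 33.9 TPM in pup 1. Rbfox3 stood more than 30-fold above Tubb3 in each pup, on 2587 and 2979 counts. Its transcripts were not examined and its cell source was not tested, so this level is not assigned to neurons.

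Of 12 sensory neuron genes, 5 were detected and 2 reached 1 TPM. Calcb, the gene of the second CGRP, had 5.43 TPM in pup 2 and 5.88 TPM in pup 1. Avil, an actin-binding protein of sensory neurons, had 0.19 TPM in pup 2 and 0.26 TPM in pup 1, and 0.50 TPM and 0.55 TPM by the posterior mean. Trpv1, the capsaicin receptor, had 1 count in pup 2 and 2 in pup 1, Scn10a had 0 and 1, and Prdm12 had 0 in both. These last 3 genes were therefore at or near 0, while a CGRP peptide gene was not.

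Of 18 other Schwann cell genes, 17 were detected and 10 reached 1 TPM. The highest were Mal, a membrane raft protein that urothelium also makes, with 107.6 TPM in pup 2 and 119.8 TPM in pup 1, Cnp, with 60.7 TPM and 55.2 TPM, and Ednrb, an endothelin receptor, with 25.7 TPM and 20.1 TPM. Erbb3, the neuregulin receptor of Schwann cells, had 5.69 TPM in pup 2 and 6.72 TPM in pup 1. Erbb3 thus lay above Sox10 and well below Pmp22 in both pups.

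Markers of related cells that share some of these genes were mixed, and the level of several depended on the estimate. Of 8 central glia genes, 3 were detected: Gjb6, a connexin of many epithelia, with 30.0 TPM in pup 2 and 31.5 TPM in pup 1, Mobp, with 1.08 TPM and 0.92 TPM, and Slc1a2, at 0.04 TPM in pup 2 and 0.10 TPM in pup 1. By the posterior mean Slc1a2 had 1.98 TPM in pup 2 and 1.67 TPM in pup 1, on only 6 and 13 counts. Olig2 and Mog had 0 counts in both pups, and Olig1 and Aqp4 had 0 in pup 2 and 1 in pup 1. Of 7 melanocyte genes, only Mitf, with 1.41 TPM in pup 2 and 1.19 TPM in pup 1, and Pmel, with 0.68 TPM and 0.92 TPM, were detected. By the posterior mean Mitf had 22.0 TPM in pup 2 and 17.7 TPM in pup 1, so its level was not resolved. Dct and Tyr had 2 counts each in pup 2 and 1 each in pup 1. Of 6 adrenal medulla genes, 5 were detected, all below 1 TPM by the deposited TPM and 4 of them shared with the neuronal lists. The highest, Slc18a1, had 0.80 TPM in pup 2 and 0.78 TPM in pup 1, and by the posterior mean 1.25 TPM and 1.16 TPM. Pnmt, which makes adrenaline, had 0 counts in pup 2 and 1 in pup 1.

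**Figure D3:**
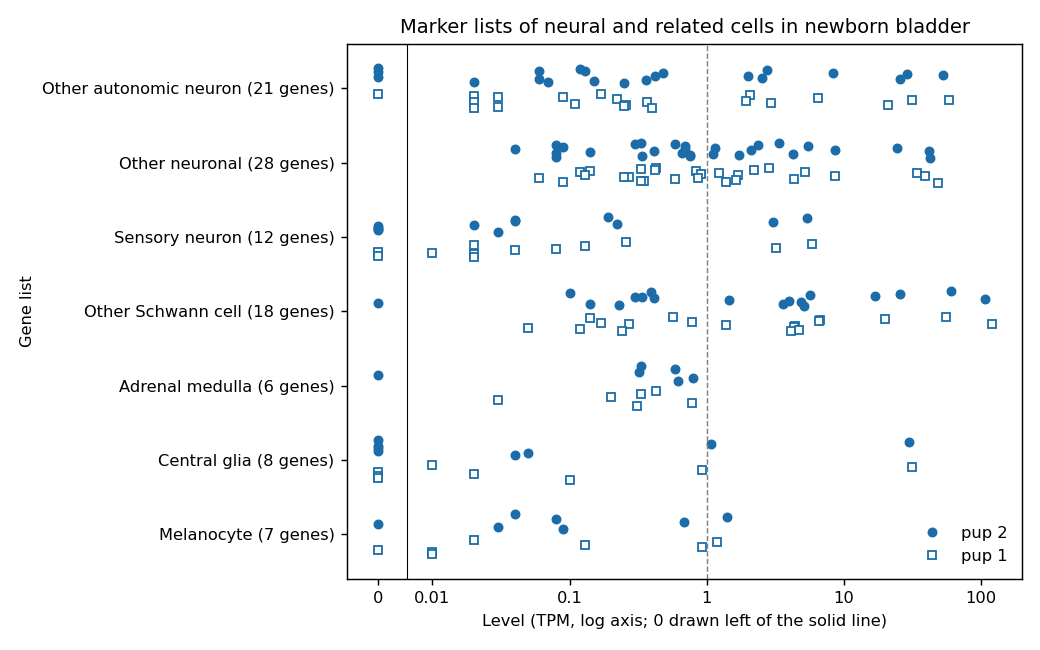
Level in TPM (log axis, 0 drawn left of the solid line) of every gene in 7 marker lists, with a filled circle for pup 2 and an open square for pup 1; the dashed line marks 1 TPM. Other Schwann cell, neuronal, autonomic and central glia genes reach above 10 TPM, whereas adrenal medulla genes stay below 1 TPM by this estimate.

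The littermates were then compared by the log2 ratio of pup 2 over pup 1, from counts scaled with TMM factors, for the 26 genes averaging 20 or more counts. Of these, 3 were more than 2-fold apart, all higher in pup 2; over all 15607 mouse genes at this depth, 3.72% were 2-fold apart and 2.84% were 2-fold higher in pup 2. The 3 genes were Calca, Npy and Th. The log2 ratio of Calca was 1.32, with an interval of 0.88 to 1.77. That of Npy was 1.06, with an interval of 0.47 to 1.67. That of Th was 1.05, with an interval of 0.09 to 2.05. The intervals of Npy and Th reach below 2-fold, as does that of Calca, so counting error alone could place each under that limit. The 3 genes have few counts, and among genes within 2-fold of the same mean count, 7.61% were 2-fold apart for Calca, 10.4% for Npy and 17.6% for Th.

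Over the 26 genes, 18 ratios were above 0 and 8 below. The median was 0.13, against -0.01 over all genes. The interval excluded 0 for 14 of 26 genes, 8 above and 6 below, against 47.3% of all genes, so the share was close to the background. The neuropeptide role was the one with the largest median ratio, 1.19 over its 2 genes with enough counts. The adhesion role had the lowest, -0.41 over 3 genes. Cdh2 had the lowest single ratio, -0.73 with an interval of -0.91 to -0.55, followed by Pmp22 at -0.47 and L1cam at -0.41. Axon genes stayed close to equal: 7 of 8 had ratios above 0, the largest being 0.28 for Stmn3, and Uchl1 had -0.11. Cdh19 had 0.87 and Elavl4 0.84, both with intervals above 0.

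**Figure D4:**
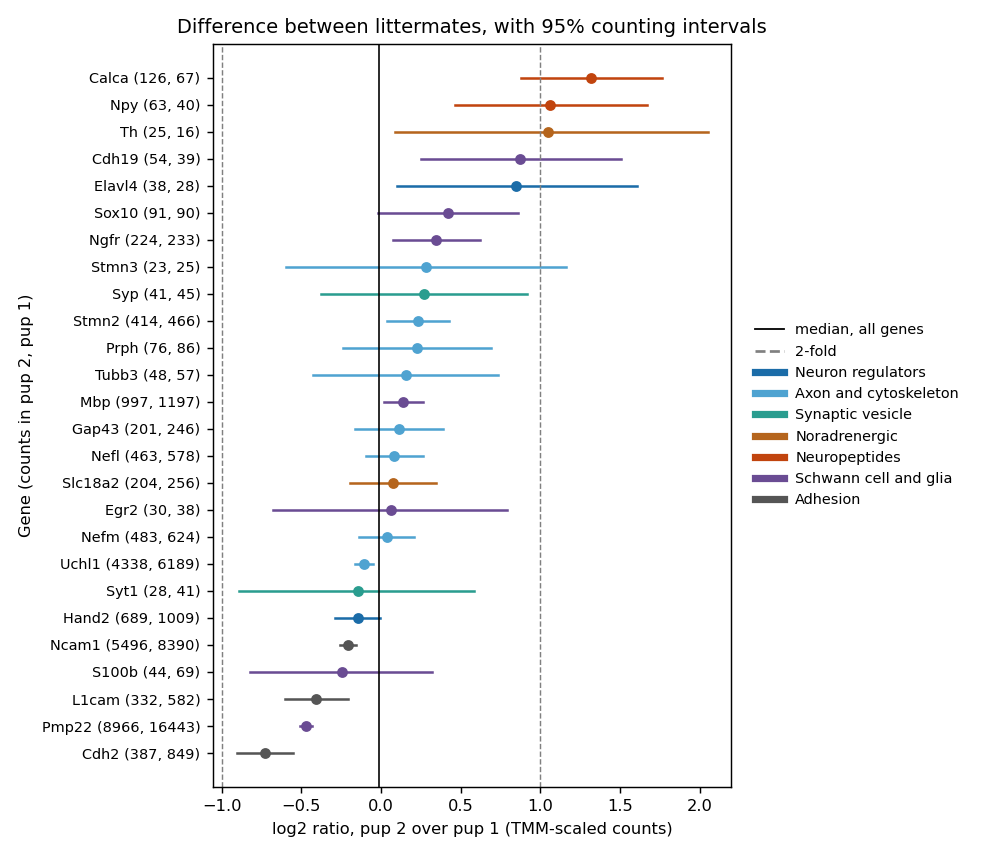
Log2 ratio of pup 2 over pup 1 for the 26 genes averaging 20 or more counts, with exact 95% binomial intervals; counts in pup 2 and pup 1 stand beside each name. Calca, Npy and Th lie above 1, Cdh2 is lowest at -0.73, and the solid line marks the median of all genes.

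The other neural lists differed in how many genes stood apart. None of the 9 autonomic, 21 neuronal or 2 sensory genes with enough counts was 2-fold apart, and their median ratios were 0.12, 0.15 and -0.01. Of 14 other Schwann cell genes, 3 were 2-fold apart, 2 of them higher and 1 lower in pup 2, against the 3.72% over all genes. Fabp7, a lipid-binding protein of Schwann cell precursors, had 16.9 TPM in pup 2 and 6.58 TPM in pup 1, a log2 ratio of 1.44. Gjc3, a glial connexin, had 28 counts in pup 2 and 17 in pup 1. Its log2 ratio was 1.12, with an interval of 0.20 to 2.09. Gjb1, a connexin of myelinating Schwann cells, had 10 counts in pup 2 and 33 in pup 1. Its log2 ratio was -1.32, with an interval of -2.50 to -0.26. Both intervals reach within 2-fold. Among genes within 2-fold of the mean count of Th, which was similar, 17.6% were 2-fold apart. Calcb, the relative of Calca, had a ratio of -0.04.

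Markers of other cells moved between the pups at the same time. All 5 red cell genes were 2-fold higher in pup 2, summing to 59101 TPM in pup 2 and 21719 TPM in pup 1. Of 7 myeloid genes, 6 were 2-fold higher in pup 2, with sums of 2022 TPM in pup 2 and 494.7 TPM in pup 1. Of 5 liver-type genes, 4 were 2-fold lower in pup 2, with sums of 18.7 TPM in pup 2 and 70.2 TPM in pup 1. No smooth muscle, urothelium or fibroblast gene was 2-fold apart; the median ratios were -0.06, 0.04 and -0.13. Whether these shifts have a part in the ratios of Calca, Npy, Th or Cdh2 was not tested.

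Windows around the starts of Calca, Npy and Th are shown because these 3 genes stood apart between the littermates. RefSeq windows of 300 bases were matched for 26 of the 36 genes, in 38 windows. Each window below is 5′ to 3′ on the strand of the gene, GRCm38.p6, with 250 bases before the start, and capitals mark matches to CCAAT, the GC box GGGCGG or the cAMP response element TGACGTCA on either strand. Calca, chr7:114636308-114636607 on the minus strand, has CCAAT matches beginning 134 and 28 bases before the start. Npy, chr6:49822460-49822759 on the plus strand, has a CCAAT match 166 and a GC box 95 bases before the start. Th, chr7:142899946-142900245 on the minus strand, has a GC box 220 and a cAMP response element 45 bases before the start.
Calca: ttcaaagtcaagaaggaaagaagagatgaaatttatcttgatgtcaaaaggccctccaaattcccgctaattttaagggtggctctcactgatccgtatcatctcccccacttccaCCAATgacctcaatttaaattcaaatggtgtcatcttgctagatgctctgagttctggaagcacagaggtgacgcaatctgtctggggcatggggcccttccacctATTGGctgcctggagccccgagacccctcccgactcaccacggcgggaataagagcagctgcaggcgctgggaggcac
Npy: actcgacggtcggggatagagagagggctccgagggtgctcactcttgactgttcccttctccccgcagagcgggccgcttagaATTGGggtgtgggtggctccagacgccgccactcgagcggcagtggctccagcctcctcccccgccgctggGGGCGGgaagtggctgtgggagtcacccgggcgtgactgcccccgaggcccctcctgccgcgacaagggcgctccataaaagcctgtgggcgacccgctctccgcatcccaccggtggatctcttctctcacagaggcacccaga
Th: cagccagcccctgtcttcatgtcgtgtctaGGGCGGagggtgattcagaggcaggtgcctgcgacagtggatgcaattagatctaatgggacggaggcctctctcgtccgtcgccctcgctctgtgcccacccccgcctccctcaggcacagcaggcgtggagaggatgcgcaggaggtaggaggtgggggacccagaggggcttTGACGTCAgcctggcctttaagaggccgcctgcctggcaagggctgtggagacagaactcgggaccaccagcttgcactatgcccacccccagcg

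None of the motifs searched, which included TATAAA, was common to the 3 windows. The cAMP response element was found in 3 of 38 windows, those of Foxd3, Slc18a2 and Th, against 1.79% of all 32851 promoter windows. CCAAT was found in 20 of 38, against 37.4% of all windows, and the GC box in 19 of 38, against 35.7%. TATAAA was found in 3 of 38, those of Elavl3, Prph and Vip, against 13.6%. The windows of the nerve genes had a median of 17.5 CG dinucleotides, against 7 over all windows. By level, the median was 18 over the 15 windows of 11 genes at 1 TPM or more. It was 16 over the 23 windows of 15 genes below it. Windows were counted singly here and for the motifs, and some genes, such as Egr2, have several that overlap. A match is a description of the letters and no evidence of binding.

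Some counts may include reads of neighbouring genes. Of the 36 genes, 22 are overlapped by another annotated gene, 16 of them by 1 on the other strand. Beside Hand2 and Nefl, the pairs with an abundant partner were S100b with Dip2a, at 6.43 TPM in pup 2 and 6.52 TPM in pup 1, and Phox2a with Inppl1, at 8.12 TPM and 8.61 TPM. L1cam overlaps Arhgap4 on the same strand, which had 2.93 TPM in pup 2 and 1.05 TPM in pup 1. Tubb3 lies within the span of Gm20388 on the same strand, which had 325 counts in pup 2 and 0 in pup 1. The division of shared reads was firm for most genes: the posterior SD of the count was 0 in both pups for 29 of 36 and at most 6.41% of the count in pup 2 and 4.93% in pup 1.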

How the data were processed

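Total RNA-seq of 1 bladder from each of 2 pups was read from 1 gene and 1 transcript file per library. Per the text listing deposited with the samples, the authors used assembly mm10 and GENCODE M4; which aligner, estimator version and strand setting they used is not given in the sources used here. Values in the files are the authors' expected counts (estimated reads per gene, not normalised), TPM per the file headers, posterior mean versions, and, as a score, the deposited posterior SD of each count; transcript shares are the authors' percent of gene TPM. The deposited TPM is a share over all entries of a file, so a few very abundant genes lower every other value in a library; 3 counts equal 0.125 TPM in pup 2 and 0.100 TPM in pup 1 for a gene with 1 kb of effective length.

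Names, overlaps and transcript structures came from GENCODE M21 by identifier (42462 of 43346 genes; 884 not matched), and windows from RefSeq. Of 50 transcripts of the 8 genes described by transcript, 39 had lengths within 1 nt in the files and in M21; Calca-202 had 870 nt in the files and 830 nt in M21, and Calca-201 had 992 nt and 994 nt. Expected counts were rounded and scaled with TMM factors (edgeR 4.0.16, R 4.3.3); a count of 3 or fewer was set to 3. Detected means over 3 counts in both pups. Python 3.11.15, pandas 2.3.3 and scipy 1.17.1 gave intervals, and steps were tested on simulated data. Alternatives were DESeq2 1.42.0 size factors, total counts, TPM ratios, posterior means, other filters and leaving out a pup. The members, roles and lists were chosen with earlier results of these data known, and the motifs, and the posterior means for the other lists and start sites, after the data were seen. Named are members at 1 TPM, the 3 highest of each role and of some lists, and genes 2-fold apart among the members and neural lists. Further genes, such as cell type markers, were chosen after their values were seen. Some genes of the lists are counted in them but not reported here by name. Spike-ins and numeric entries stayed out of the scaling.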

Additional observations from a re-analysis of the deposited data

How the results depend on the processing

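The count of nerve genes 2-fold apart was 3, and stayed within 3 to 4 under DESeq2 size factors, total-count scaling, TPM ratios, posterior mean counts and no filter on counts. With a mean count of at least 100 it was 0, and at 1.5-fold it was 6, adding Cdh19, Cdh2 and Elavl4. With the ratio of deposited TPM the 3 genes were Calca, Elavl4 and Th, with Npy just under 2-fold. The median log2 ratio of 0.13 was 0.054 with TPM ratios, where the median of all genes was -0.09, and 0.035 with a mean count of at least 100; the cause was not tested. The number detected was 34 and was 34 to 35 when either pup was left out, and 29 with more than 10 counts required. The number at 1 TPM was 19, was 19 to 20 when either pup was left out, 22 at 0.5 TPM, 15 at 2 TPM and 20 with posterior means, which moved 7 detected genes by over 1.5 times and took Syp over 1 TPM. The median level was 1.12 to 1.29 TPM when either pup was left out. No called direction reversed. Depth limits every gene below about 20 counts. No paired analysis was possible because both samples belong to 1 group.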

Other observations

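The golli part of Mbp had 875.5 counts in pup 2 and 1114 in pup 1. The Pmp22 transcripts of the upstream start had 1436 counts in pup 2 and 3008 in pup 1, and those of the downstream start 7479 in pup 2 and 13288 in pup 1. Cdh2-202, whose start lies 139177 nt downstream of that of Cdh2-201, had 185.8 counts in pup 2 and 444.8 in pup 1. Ret, the receptor tyrosine kinase of glial-derived neurotrophic factor, had 23 counts in pup 2 and 51 in pup 1, and P2rx3, a purine receptor of bladder afferents, had 9 in pup 2 and 4 in pup 1. No explanation of these values was tested.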
